A study of Mus musculus with 5 samples.

Results

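The ankyrins and spectrins form the scaffold that lines the inner face of the plasma membrane, and 7 of their genes were followed here in the cerebellum of mice at postnatal day 14: the ankyrins Ank1, Ank2 and Ank3, the alpha spectrin Sptan1 and the beta spectrins Sptb, Sptbn1 and Sptbn4. They were chosen by gene family, and they are 7 of the 55421 genes in the raw count table. Bulk RNA-seq of whole cerebella compared 3 Yy1 cKO libraries, from mice carrying Pcp2 Cre/+ with Yy1 fx/fx, with 2 control libraries from littermates carrying Pcp2 Cre/+ with Yy1 fx/+. Mice of both groups thus carried the Cre allele and at least 1 floxed copy of Yy1, so the controls are not wild type. The Pcp2 promoter is known for activity in Purkinje cells, while the RNA came from all cells of the cerebellum. The mice were of mixed sex. Xist had 12 and 6 counts in control 1 and Yy1 cKO 3, where the Y-linked Ddx3y had 1175 and 1471. In control 2, Yy1 cKO 1 and Yy1 cKO 2 Xist had 44119, 34304 and 29862 counts and Ddx3y had 0. Control 1 and Yy1 cKO 3 thus read as male and the others as female. The labels do not say which animal or litter a replicate came from. The p-values therefore measure the spread between these samples, which may in part be technical.

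Spectrins are long rod-shaped proteins in which an alpha and a beta subunit lie side by side and join head to head, so that they can bridge short actin filaments into a lattice under the membrane. Ankyrins tie that lattice to ion channels, pumps and adhesion molecules. In neurons the lattice runs along axons and dendrites, and ankyrin-G (Ank3) with beta-IV spectrin (Sptbn4) gathers sodium and potassium channels at the axon initial segment and the nodes of Ranvier. Ankyrin-R (Ank1) and beta-I spectrin (Sptb) are best known from red blood cells, but neurons of the cerebellum make them as well.

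Total counts were 17424860 to 20305705 per library, and 0.550% to 0.631% of them fell on the 7 genes. No member had fewer than 3839 counts in any library and each of the 7 passed the filter on low counts. Yy1 itself was at 74.6 and 73.7 CPM (counts as a rate of the library total, scaled by the TMM method) in the controls against 73.4, 81.7 and 75.8 CPM in Yy1 cKO. Its adjusted p was 0.61 (edgeR quasi-likelihood test, Benjamini-Hochberg adjustment), and in whole tissue this value checks the labels little. At an adjusted p under 0.05, Yy1 cKO had 2185 genes called higher and 2577 called lower out of 20388, or 23.4%. Scaling by library totals alone gave 1432 higher and 3369 lower, with a shift of -0.08 in the median log2 fold change. Of the cerebellar markers, 15 of 15 for Purkinje cells and 11 of 11 for mature granule neurons passed the filter. Sptbn5, with a control mean of 0.73 CPM, passed it too, so this checks the tissue little.

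Of the 7 genes, 4 rose in Yy1 cKO (Sptb, Ank1, Sptan1 and Ank2) and 0 fell. Over all genes tested 10.7% were called higher. Without control 1 or without control 2 the number of members called was 2, Ank1 and Sptb. In bulk tissue fewer or more cells of a type cannot be told apart from less or more RNA per cell. Among the 829 genes with a control mean of at least 200 CPM, a level that all 7 members reach and that was picked after their values were seen, 31.7% were called higher. The median log2 fold change was 0.24 over the 7 genes and -0.00086 over all genes tested. The groups did not overlap for 6 of the 7 genes, each of them higher in Yy1 cKO. Over all genes tested the groups did not overlap for 52.2%, and for 25.2% with Yy1 cKO the higher.

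Of the ankyrins, Ank1 had the largest log2 fold change and Ank3 the smallest. Ank1 stood at 385 and 363 CPM in control 1 and control 2 and at 555, 568 and 489.8 CPM in Yy1 cKO 1, 2 and 3. All Yy1 cKO libraries were above both controls, with Yy1 cKO 3 the lowest of them. The log2 fold change was 0.52 ± 0.077 (SE, adjusted p = 0.0011, edgeR quasi-likelihood test), a 1.44-fold rise with a 95% interval of 1.275 to 1.62. The Ank1 gene (ENSMUSG00000031543.18) lies on chromosome 8 at 22974844 to 23150497 of GRCm38, on the plus strand. A partly overlapping antisense gene, Gm15816, had 44 to 70 counts per library against at least 6516 for Ank1. The genes that overlap exons of Ank2, Sptbn1 and Sptbn4 had at most 21 counts. With the strand setting unknown, what reads in the shared bases add to or take from the members was not tested.

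Ank2 encodes ankyrin-B, which is found along the whole axon and holds transporters such as the sodium-calcium exchanger. It stood at 1295 and 1242 CPM in the controls, against 1579.8, 1519.9 and 1385 CPM in Yy1 cKO. The groups did not overlap, but Yy1 cKO 3 was nearer to the controls than the others were. The log2 fold change was 0.24 ± 0.076 (SE, adjusted p = 0.049, edgeR quasi-likelihood test), so the call is at the edge of the threshold. It was lost in 8 of 18 alternative analyses, among them scaling by library totals alone (log2 fold change 0.16, adjusted p = 0.15) and the removal of control 1 (adjusted p = 0.17), control 2 (0.28), Yy1 cKO 1 (0.18) or Yy1 cKO 2 (0.13). Ank2 (ENSMUSG00000032826.18) lies on the minus strand of chromosome 3 at 126921612 to 127499350.

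Ank3, the ankyrin of the axon initial segment, stood at 1056 and 955 CPM in the controls, against 1068, 1029 and 904 CPM in Yy1 cKO. Both controls lay inside the range of the Yy1 cKO libraries. The log2 fold change was -0.01 ± 0.086 (SE, adjusted p = 0.96, edgeR quasi-likelihood test), and the 95% interval of the fold ran from 0.87 to 1.14. A change of the size seen for Ank1 thus lies outside that interval. Ank3 (ENSMUSG00000069601.14) lies on chromosome 10 at 69398773 to 70027438, on the plus strand. Its 47 annotated transcripts, the longest of 9963 bases, are summed in 1 count.

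**Figure D1:**
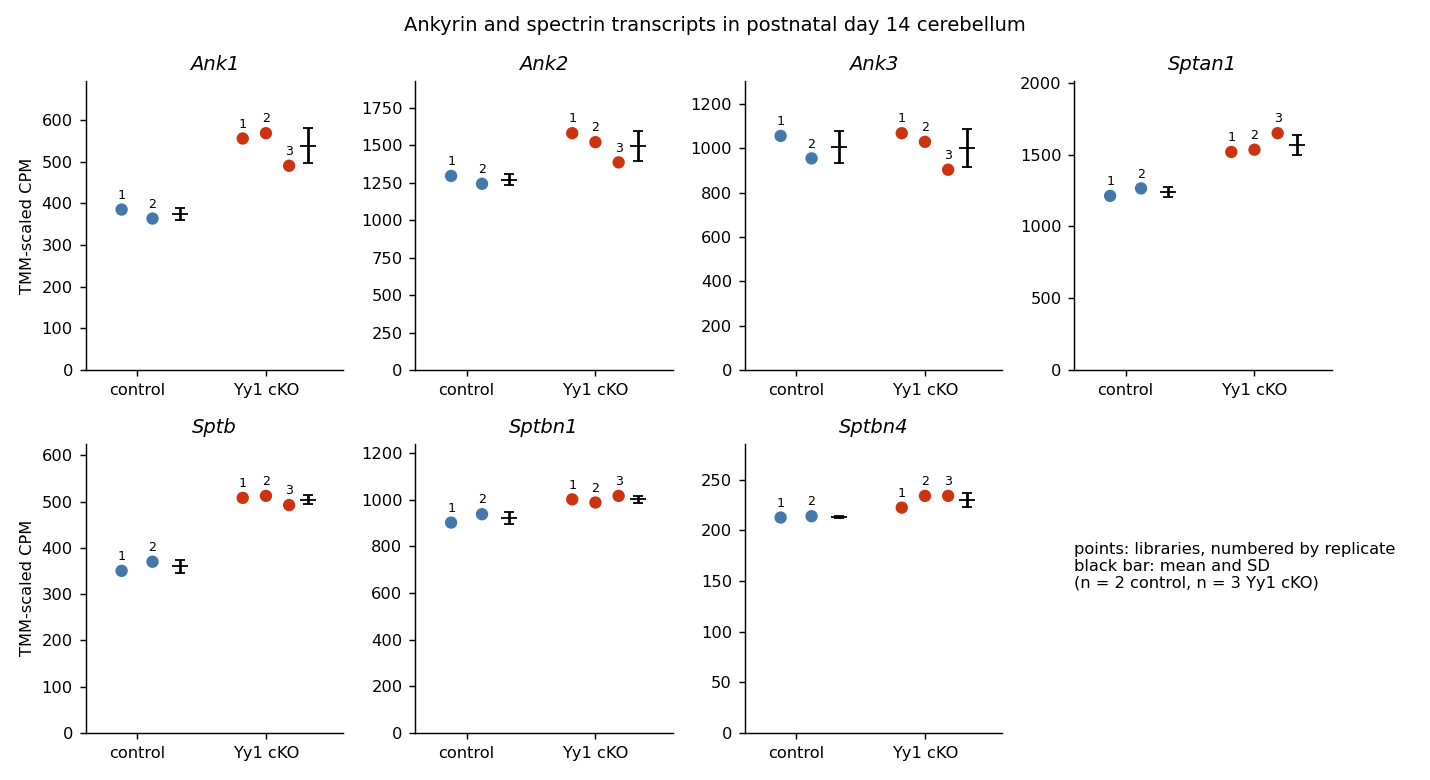
TMM-scaled CPM of each of the 7 genes (vertical axes start at 0) in 2 control libraries (blue) and 3 Yy1 cKO libraries (red); each point is a library with its replicate number, and the black bar is the mean and SD. The groups are apart for Ank1, Ank2, Sptan1, Sptb, Sptbn1 and Sptbn4, and Ank3 overlaps.

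Among the spectrins Sptb had the largest log2 fold change. This gene, for beta-I spectrin, stood at 350.4 and 370.1 CPM in the controls, against 508, 512.5 and 493 CPM in Yy1 cKO. The Yy1 cKO libraries were close together and well above both controls. The log2 fold change was 0.49 ± 0.060 (SE, adjusted p = 4.3e-04, edgeR quasi-likelihood test), a 1.40-fold rise with a 95% interval of 1.275 to 1.54, and this was the smallest p of the 7 genes. Sptb (ENSMUSG00000021061.15) lies on the minus strand of chromosome 12 at 76580488 to 76710547 and shares 1 exonic base with Plekhg3 on the other strand.

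Sptan1 encodes alpha-II spectrin, the alpha chain that all the beta spectrins of neurons pair with. It stood at 1213 and 1265 CPM in the controls, against 1518, 1534 and 1649 CPM in Yy1 cKO, with Yy1 cKO 3 the highest here. The log2 fold change was 0.34 ± 0.070 (SE, adjusted p = 0.0070, edgeR quasi-likelihood test), a rise of 26.5%. The call was lost without control 1 (log2 fold change 0.31, adjusted p = 0.097) and without control 2 (0.37, adjusted p = 0.058), where the lone control is assumed to vary like the Yy1 cKO libraries. Sptan1 (ENSMUSG00000057738.14) lies on chromosome 2 at 29965560 to 30031451, on the plus strand.

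Sptbn1, for beta-II spectrin, the general beta chain of axons and of many other cells, stood at 902 and 937.5 CPM in the controls, against 1001, 988 and 1016 CPM in Yy1 cKO. Sptbn4, for the beta-IV spectrin of initial segments and nodes, stood at 213 and 214 CPM against 223, 234 and 234 CPM. Every Yy1 cKO library was above both controls for these genes too, yet the differences were small. The log2 fold change of Sptbn1 was 0.12 ± 0.062 (SE, adjusted p = 0.19) and that of Sptbn4 was 0.11 ± 0.054 (SE, adjusted p = 0.18, both edgeR quasi-likelihood test). The 95% intervals of the folds were 0.99 to 1.20 for Sptbn1 and 0.99 to 1.17 for Sptbn4, so both upper bounds lie under the 1.40-fold of Sptb. Sptbn1 (ENSMUSG00000020315.18) lies on the minus strand of chromosome 11 at 30099395 to 30268175 and Sptbn4 (ENSMUSG00000011751.16) on the minus strand of chromosome 7 at 27356383 to 27447686.

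**Figure D2:**
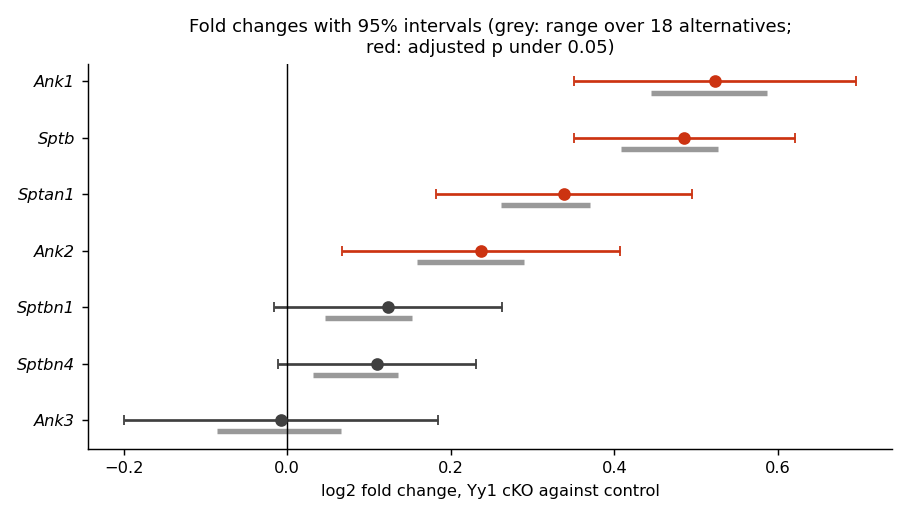
Log2 fold change of each gene, Yy1 cKO against control (points, with 95% intervals from the edgeR fit), and the range of the value over 18 alternative analyses (grey bars); red marks an adjusted p under 0.05. Ank1, Sptb, Sptan1 and Ank2 lie to the right of 0 with their intervals, and those of Sptbn1, Sptbn4 and Ank3 cross it.

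Since YY1 binds DNA, the start sites of the members were read for its motif cores. RefSeq windows of 300 bases (250 before to 50 after an annotated start, GRCm38.p6) were at hand for 5 of the 7 genes, with 12 windows in all; Ank1 and Ank3 had none. The cores searched were CCATNTT and CCGCCAT, on both strands, where a match to one can overlap a match to the other through the shared CCAT. Neither was found in any of the 12 windows, while 16.1% of all 32851 windows held CCATNTT and 4.1% held CCGCCAT. This says only that these letters are not in these windows. All windows of Sptbn1 and Sptbn4 lie inside the gene coordinates given above, so the outermost annotated starts of these genes were not read. The Sptbn1 window nearest to its start ends at 30220022, with the gene reaching to 30268175. In each Ank2 window the bases before the start overlap annotated exons. The 250 bases before the start are shown for Sptb and Sptan1, the spectrin pair that rose, for chr2:29965310-29965559 on the plus strand (Sptan1) and chr12:76710548-76710797 on the minus strand (Sptb). Both are in lower case throughout because no core was matched.
Sptan1: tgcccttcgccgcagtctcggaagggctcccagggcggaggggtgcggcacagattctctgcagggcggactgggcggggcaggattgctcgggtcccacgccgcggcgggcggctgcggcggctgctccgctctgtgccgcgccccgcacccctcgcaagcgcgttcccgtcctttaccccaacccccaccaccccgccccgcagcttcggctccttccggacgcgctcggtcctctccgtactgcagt
Sptb: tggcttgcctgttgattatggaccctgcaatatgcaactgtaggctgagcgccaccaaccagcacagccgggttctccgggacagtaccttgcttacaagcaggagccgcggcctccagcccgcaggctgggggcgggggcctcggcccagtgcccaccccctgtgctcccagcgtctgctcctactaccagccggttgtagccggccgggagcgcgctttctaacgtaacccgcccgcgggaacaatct
The GC content of the full windows was 73.3% for Sptan1 and 65.7% for Sptb, against a median of 52.7% over all windows.

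Ratios between members of a library do not depend on how the libraries were scaled. Per kilobase of merged exons, the ratio of Ank1 to Ank3 was 0.94 and 0.98 in the controls, against 1.34, 1.42 and 1.40 in Yy1 cKO, 1.44-fold higher on average. The ratio of Ank2 to Ank3 was 1.258 ± 0.053 (SD, n = 2) in the controls against 1.489 ± 0.032 (SD, n = 3). The groups did not overlap for either ratio. Over the 3 Yy1 cKO libraries the coefficient of variation was 7.8% for Ank1 and 8.6% for Ank3 but 3.1% for their ratio. It was 6.7% for Ank2 and 2.1% for the ratio of Ank2 to Ank3. Beta spectrin ratios were not steadier than their genes. The value was 3.4% for Sptb to Sptbn1 and 3.2% for Sptbn4 to Sptbn1, against 2.1% for Sptb, 2.9% for Sptbn4 and 1.4% for Sptbn1.

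Among the beta spectrins the ratio of Sptb to Sptbn1 was 0.560 and 0.569 in the controls, against 0.731, 0.747 and 0.698 in Yy1 cKO, 1.29-fold higher. The ratio of Sptbn4 to Sptbn1 was 0.425 ± 0.0099 (SD, n = 2) in the controls, against 0.421 ± 0.014 (SD, n = 3) in Yy1 cKO, and the groups overlapped. The sum of the 3 beta genes to Sptan1 was 1.131 and 1.125 in the controls, against 1.08, 1.07 and 0.998 in Yy1 cKO, lower in each Yy1 cKO library than in both controls. The exact permutation test (two-sided) gave p = 0.20 for 4 of these 5 ratios, adjusted over the 5 to 0.25, and p = 1 for Sptbn4 to Sptbn1. With 2 against 3 samples 0.20 is the smallest p that this test can reach, so no ratio could pass a threshold of 0.05.

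**Figure D3:**
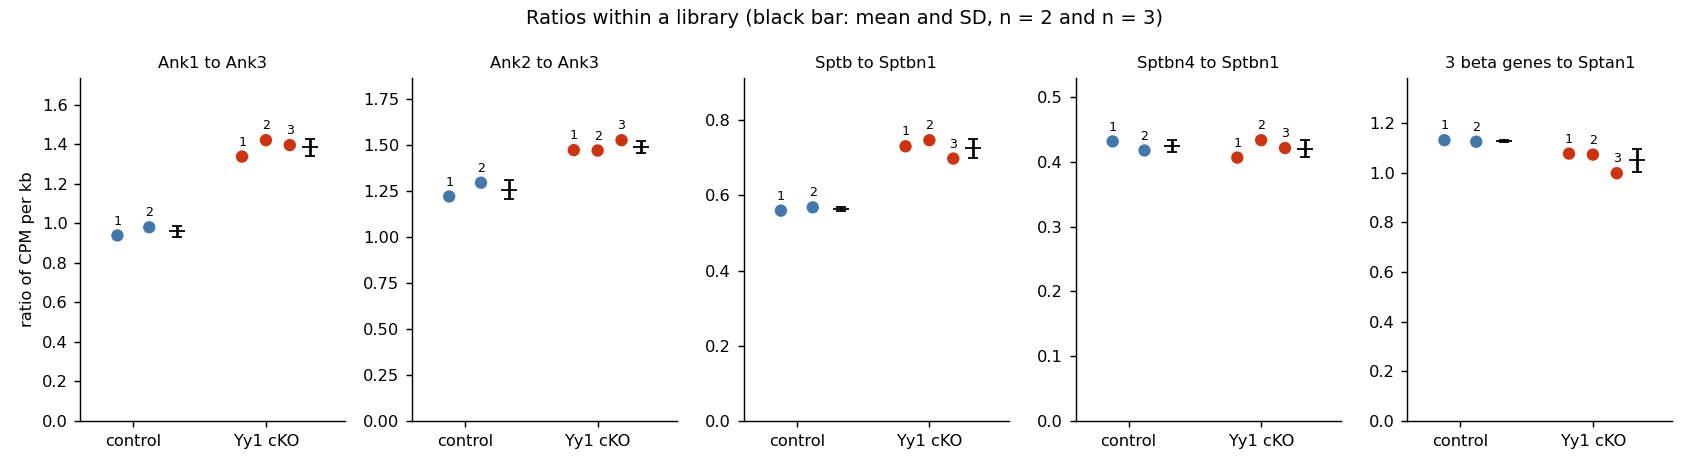
Ratios of CPM per kilobase of merged exons within each library (vertical axes start at 0), for 5 pairs, in 2 control libraries (blue) and 3 Yy1 cKO libraries (red), with the mean and SD as a black bar. The ratios of Ank1 to Ank3, Ank2 to Ank3 and Sptb to Sptbn1 are higher in each Yy1 cKO library, that of the 3 beta genes to Sptan1 is lower, and that of Sptbn4 to Sptbn1 overlaps.

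Levels of different genes were compared per kilobase of merged exons. Sptan1 was the highest in every library, with 92.7 ± 2.7 CPM per kb (SD, n = 2) in the controls, against 117 ± 5.3 (SD, n = 3) in Yy1 cKO. Sptbn1 came next, at 52.6 ± 1.5 and 57.3 ± 0.81 CPM per kb, and Sptbn4 was the lowest, at 22.32 ± 0.098 and 24.1 ± 0.70 CPM per kb. Ank2, Sptb, Ank3 and Ank1 lay between them in the controls, at 36.2 ± 1.1, 29.7 ± 1.1, 28.9 ± 2.1 and 27.7 ± 1.1 CPM per kb. The last 3 of these did not differ beyond their spread, and in Yy1 cKO Sptb (41.5 ± 0.86) and Ank1 (39.8 ± 3.1) were above Ank3 (28.7 ± 2.5) in every library. Of the ankyrin total per kilobase, Ank1 made up 29.8% ± 0.15 (SD, n = 2) in the controls, against 35.75% ± 0.71 (SD, n = 3) in Yy1 cKO, and Ank3 31.1% ± 0.80 and 25.8% ± 0.39. Of the total of the 3 beta genes, Sptb made up 28.4% ± 0.37 and 33.8% ± 0.74.

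The order depends on the length used. Divided by the longest annotated transcript in place of merged exons, the controls had 101 CPM per kb for Ank3, 88.7 for Ank2 and 44.7 for Ank1, which puts Ank3 first among the ankyrins. Sptan1 (154.5 CPM per kb) and Sptbn4 (24.4) kept the highest and the lowest place. The fold of each gene between the groups is the same with either length.

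**Figure D4:**
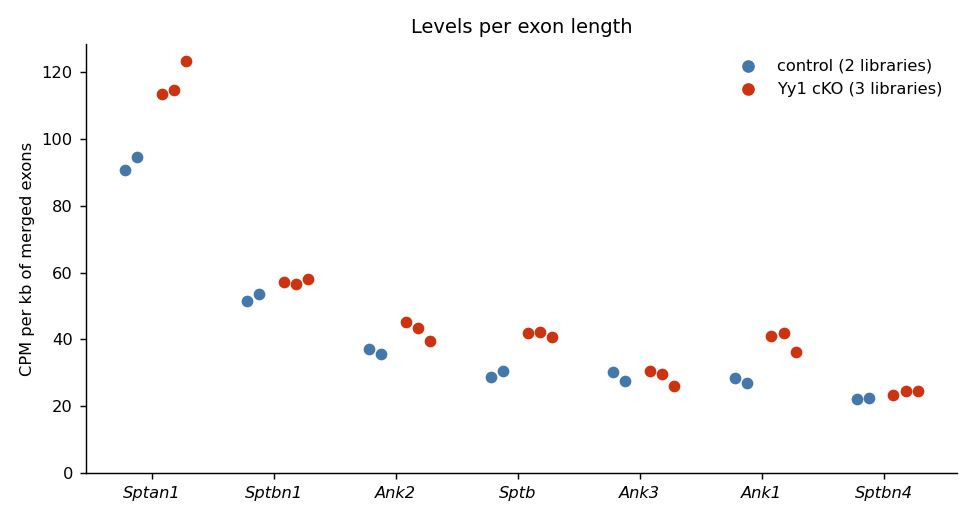
CPM per kilobase of merged exons (vertical axis from 0) of each gene in each library, with genes ordered by their control mean; blue points are the 2 control and red points the 3 Yy1 cKO libraries. Sptan1 is the highest and Sptbn4 the lowest in every library, and Sptb and Ank1 are both above Ank3 in each Yy1 cKO library.

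Ank1 and Sptb are also the ankyrin and the beta spectrin of red blood cells, and haemoglobin transcripts were higher in Yy1 cKO. Of 12 erythroid markers 11 were in the table and 6 were tested, of which 4 rose and 0 fell. Their summed level was 263.5 to 304 CPM in the controls, against 596 to 963 CPM in Yy1 cKO. Hba-a1, an alpha globin gene, went from 70.6 ± 5.5 to 224 ± 51.0 CPM (SD, n = 2 and 3). Of other genes of the red cell membrane, Epb42 had 1 to 4 counts per library, and Rhag had 0 in each of the 5 libraries. Slc4a1, the anion exchanger that ankyrin-R holds, was at 1.34 and 2.01 CPM in the controls, against 1.31, 1.70 and 2.58 CPM in Yy1 cKO (adjusted p = 0.80). The part of red cell RNA in the Ank1 and Sptb values was not tested.

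Neuronal markers moved too, where over all genes tested 10.7% were called higher and 12.6% lower. Of 11 markers of mature granule neurons 9 rose and 0 fell, with summed levels of 3464 to 3604 CPM in the controls, against 4606 to 5198.5 CPM in Yy1 cKO; Gabrd, a GABA receptor subunit, and Car4, a carbonic anhydrase, had the smallest p (log2 fold changes 0.60 ± 0.061 and 0.96 ± 0.092, SE). Of 15 Purkinje cell markers 6 rose and 0 fell, and of 11 interneuron markers (molecular layer and Golgi cells) 6 rose and 1, Ptprk, fell. Of 14 markers of granule cell precursors and young granule cells 13 fell and 0 rose; the smallest p belonged to Dcx and Sox11 (log2 fold changes -3.88 ± 0.066 and -3.72 ± 0.089, SE). Among glial and vascular markers, 3 of 12 for mature oligodendrocytes rose and 1 fell, 0 of 9 for their precursors rose and 6 fell, 3 of 11 for astrocytes and Bergmann glia rose and 2 fell, 2 of 9 for endothelial and mural cells rose and 5 fell, and 0 of 6 microglial genes tested passed. The part that these shifts play in the values of the ankyrins and spectrins was not tested.

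The partners of the lattice were read from 6 lists with 68 genes, of which 67 were tested; 23 rose and 10 fell, or 15 and 13 with libraries scaled by their totals alone, 11 and 6 without control 1, and 14 and 6 without control 2. Over all genes tested 10.7% were called higher and 12.6% lower. Among the 829 genes with a control mean of at least 200 CPM these shares were 31.7% and 14.4%. The counts of this list and those below are to be read beside these shares. Of the transcripts of 10 proteins listed as bound by ankyrins 7 rose and 0 fell (median log2 fold change 0.29, against -0.00086 over all genes). Atp1b1, a subunit of the sodium pump, rose by 0.59 ± 0.070 on the log2 scale (SE), Itpr1, a calcium release channel that is also on the Purkinje list, by 0.75 ± 0.097, and Slc8a2, a sodium-calcium exchanger, by 0.32 ± 0.061. Dag1, Cd44 and Dctn4 did not pass (log2 fold changes -0.02, 0.0037 and -0.04).

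Of 28 genes of the axon initial segment and the nodes 11 rose and 5 fell, with a median of 0.20. Among those that rose were channel genes: Scn1a and Scn2a, sodium channels, went from 117 ± 6.8 to 197 ± 7.7 CPM and from 490.2 ± 2.3 to 754 ± 13.5 CPM (SD, n = 2 and 3), and Kcna2, a potassium channel beside the nodes, from 339 ± 4.2 to 555 ± 39.2 CPM. The 5 that fell were Mapre1, which tracks microtubule ends (-0.66 ± 0.058, SE), Fgf13, a sodium channel partner (-0.78 ± 0.092), L1cam, an adhesion molecule that binds ankyrin (-0.34 ± 0.059), Trim46, which bundles microtubules in the initial segment (-0.36 ± 0.071), and Nfasc, the neurofascin gene (-0.26 ± 0.060). Other channel genes of the list did not pass, among them Scn8a, Scn4b and Kcnq3 (log2 fold changes 0.21, 0.96 and 0.76, adjusted p = 0.14, 0.40 and 0.29).

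Genes of the junction between spectrin and actin moved both ways, with 3 of 18 higher, 5 lower and a median of 0.01. Dmtn, which bundles actin (0.37 ± 0.064, SE), Tmod2, which caps the slow-growing end of the filaments (0.24 ± 0.057), and Epb41, protein 4.1R (0.25 ± 0.071), rose. Actb and Actg1, the cytoplasmic actins, fell by 0.47 ± 0.070 and 0.86 ± 0.13 on the log2 scale (SE), Epb41l2, protein 4.1G, by 0.52 ± 0.075, Tpm3 by 0.23 ± 0.061 and Capza1, a capping subunit, by 0.45 ± 0.12. The adducins, which hold spectrin to the ends of actin filaments, did not pass, with log2 fold changes of -0.12 for Add1, 0.16 for Add2 and -0.03 for Add3 (adjusted p = 0.13, 0.052 and 0.79). Of 7 genes of spectrin proteolysis 1 rose, Capns1, the small subunit of the calpains (0.19 ± 0.061, adjusted p = 0.045), and 0 fell. Of the pair of ankyrin palmitoyltransferases Zdhhc8 rose (0.38 ± 0.069) and Zdhhc5 did not pass (0.13 ± 0.059, adjusted p = 0.16).

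**Figure D5:**
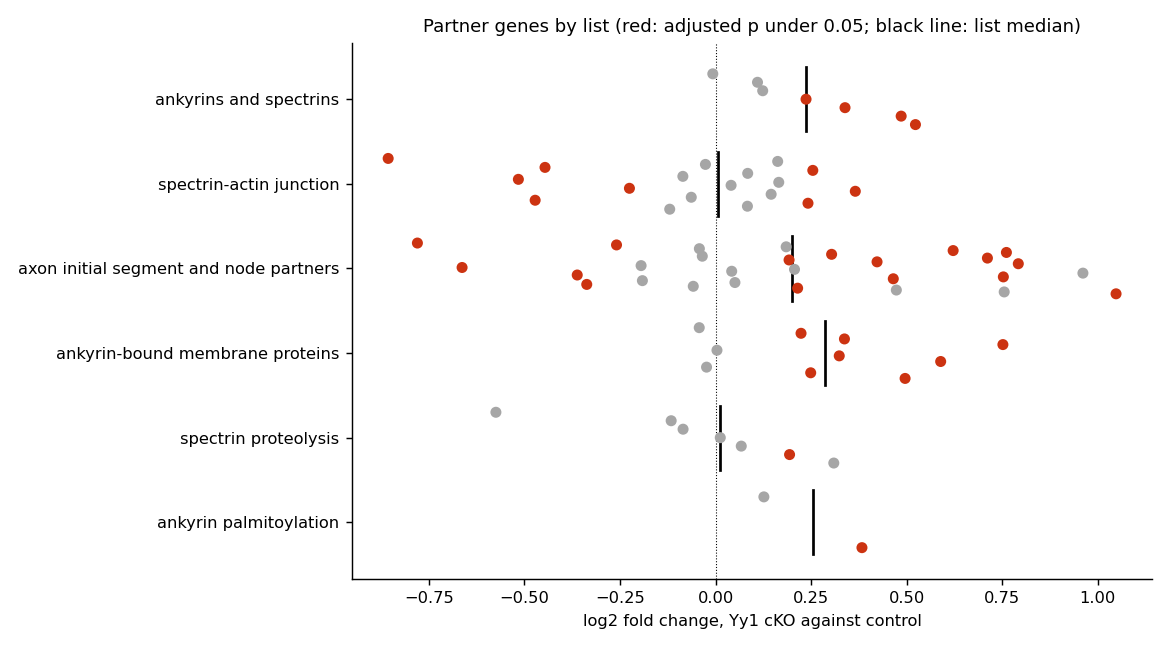
Log2 fold change, Yy1 cKO against control, of each tested gene of the family and of 5 partner lists (points, 1 per gene, spread vertically only for legibility); red marks an adjusted p under 0.05 and the black line is the list median. Genes of ankyrin-bound membrane proteins that passed lie to the right of 0, and those of the spectrin-actin junction lie on both sides.

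The genes most like each member were found by the distance of their 5 log2 CPM values, each centred on its own mean, among 10730 other genes with a mean of at least 10 CPM. Nearest to Ank1 were Rtn4rl1, Prepl and Usp31 (root mean square distances 0.013, 0.015 and 0.019 on the log2 scale), and nearest to Sptb were Pxn, Elf2 and Olfm3 (0.018 to 0.020). For Ank2 they were Rsad1, Gm6560 and Xylt1, for Ank3 Gabpb1, Ergic2 and Fnbp1, for Sptan1 Zfp653, Fgf1 and Prpf38b, for Sptbn1 Agpat5, Sh3gl1 and Fbf1, and for Sptbn4 Zxda, Pcbp2 and Etv3. Among the other members, Sptb was the closest to Ank1, at a distance of 0.076 and rank 184. Sptbn1 and Sptbn4 were 0.034 apart, the smallest distance between any pair of members. Ank3 and Ank1 were 0.26 apart, the largest. With 5 libraries in 2 groups such distances describe these libraries alone.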

How the data were processed

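Per the labels' protocols, total RNA was extracted with TRIzol, depleted of ribosomal RNA and made into strand-specific libraries, and per the design text read as 150 bp pairs. The submitters' processing notes name GRCm38, the aligner STAR 2.7.1a, the counter featureCounts, DESeq2 1.26.0 and, for read quality and trimming, FastQC 0.11.8 with Trimmomatic 0.39. Their order and settings, the strand setting included, were not given in the sources used here. The authors deposited raw counts per gene and a normalized signal, which equals the raw count divided by 1 constant per library (0.969 to 1.07). Symbols came from GENCODE M21: 54673 identifiers matched with version, 567 without, and 181 had no match.

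The test was edgeR 4.0.16 (R 4.3.3), quasi-likelihood with robust dispersion, TMM scaling, filterByExpr, no covariate and Benjamini-Hochberg adjustment over 20388 genes, at 0.05; it was tested on simulated data. SE and 95% intervals come from the quasi-likelihood F. Exact permutation tests served the ratios. Chi-square per gene was 3.51 to 16.7 between libraries of a group and 34.1 to 41.5 across groups, so no library was a copy. Named genes were all members, up to 4 called genes per partner list and direction and 2 per marker list by smallest p (mean of at least 1 CPM, no overlap), and 3 nearest genes per member; other genes of the lists were picked after their values were seen, and some genes that the rule names are not reported here. Members and lists were chosen with earlier results of these data known. Alternatives were other scalings, filters and tools (DESeq2 1.42.0, limma 3.58.1, the latter also on log2 of the deposited signal plus a pseudocount of 1 or 0.5), a replicate block, Xist as covariate, a table with sex-linked, mitochondrial and haemoglobin genes taken out, each library left out, and longest transcripts for levels.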

Additional observations from a re-analysis of the deposited data

How the results depend on the processing

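Ank1 and Sptb kept their direction and their call in all 18 alternatives (log2 fold changes 0.44 to 0.59 and 0.41 to 0.53), and Sptbn1 and Sptbn4 stayed positive and passed in none. Leaving out a library moved the number of members called to between 2 and 4. Partner genes called moved to between 17 and 42, with between 11 and 29 higher and between 6 and 13 lower. All genes called moved to between 2187 and 6117 (887 to 2990 higher, 1267 to 3127 lower). The low ends came from the removal of either control, which leaves a lone control. Removal of Yy1 cKO 1 or Yy1 cKO 2 leaves as many libraries in all, and 3368 and 3649 genes were called. Ank2 lost its call with library size alone (0.16), a filter of 1 CPM in 2 libraries (0.23, adjusted p = 0.052), edgeR without robust dispersion (0.24, adjusted p = 0.074), Xist as a covariate (0.23, adjusted p = 0.051), and without either control, Yy1 cKO 1 or Yy1 cKO 2 (0.20 to 0.27), but not without Yy1 cKO 3 (0.29). Without single libraries Sptan1 ranged from 0.30 to 0.37. Ank3, near 0, was positive with upper quartile scaling (0.011) and ranged from -0.077 to 0.066 without single libraries. The log2 change of the ratio of Sptbn4 to Sptbn1 ranged from -0.038 to 0.0099 without single libraries. Library size alone gave 1432 genes higher in all and 15 partner genes higher. Levels per kb of the longest transcript in the controls were 44.7 for Ank1, 88.7 for Ank2, 100.9 for Ank3, 154.5 for Sptan1, 34.7 for Sptb, 101 for Sptbn1 and 24.4 for Sptbn4. The causes of these moves were not tested beyond what is stated.

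Whether libraries with the same replicate number belong together is not known. Deviations of same-numbered libraries from their group means correlated at -0.191 and 0.275 over 10731 genes. Those of control 1 and Yy1 cKO 3, which share no number, correlated at 0.283. With 2 controls the deviations of control 2 mirror those of control 1, so these values cannot decide it. With the replicate number as a block, 7061 genes were called (3486 higher), no call of a member changed, and Ank3 was at 0.063 (adjusted p = 0.41). No control has the number of Yy1 cKO 3, so with the block that library adds nothing to the group difference. The log2 fold change of Ank1 was 0.586 with the block and 0.586 without Yy1 cKO 3.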

Other observations

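Control 2 and Yy1 cKO 3 had the highest levels of their groups for the Purkinje cell genes Pcp2 (247 and 344 CPM), Calb1 (730.0 and 734 CPM) and Slc1a6 (186 and 159 CPM). Sptbn5, another spectrin gene, had 9 to 26 counts per library.

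Some partner genes were set apart by Yy1 cKO 3. Kcnq3, a potassium channel gene, stood at 75.2, 75.0 and 141 CPM in Yy1 cKO 1, 2 and 3 against 60.2 and 54.7 CPM in the controls (adjusted p = 0.29, edgeR quasi-likelihood test). Scn4b stood at 68.9, 65.1 and 24.5 CPM against 34.6 and 19.6 CPM (adjusted p = 0.40). These genes were picked after their values were seen.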
